A study of Mus musculus with 8 samples.

Results

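Expression of 9 genes that encode mediators or markers of T cell suppression (Fgl2, Il10, Ebi3, Entpd1, Nt5e, Cd38, Ido1, Ikzf2 and Foxp3) was examined in liver CD8 T cells after CD137 agonism. The genes were chosen by name, and all 9 symbols were found among the 22609 gene symbols in the files. The data were 8 bulk RNA-seq libraries from male C57BL/6J mice aged 6 weeks, all given an agonist antibody against CD137 on day 0, 3 and 6, with livers taken on day 8. In both groups the sorted cells were live, CD45+, TCRβ+, CD8α+ and KLRG1+, and lacked MHC class II, NK1.1, CD4 and CD127. They differed in surface CD11c, which was present in 4 libraries (CD11c+) and absent in 4 (CD11c-). All 8 libraries are from antibody-treated mice, so the comparison is between these subsets and not between treated and untreated cells.

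CD137 is a costimulatory receptor of the TNF receptor family, and CD11c+ CD8 T cells that appear after its agonism have been described as regulatory. T cells can suppress neighbouring cells by secreting inhibitory proteins (FGL2, IL-10 and the cytokines that contain EBI3), by breaking down nucleotides outside the cell (CD39, CD73 and CD38) or by depleting tryptophan (IDO1). The transcription factors FOXP3 and Helios mark regulatory T cells, and Helios has also been linked to regulatory CD8 T cells. The comparison asks how strongly each of these genes was transcribed in CD8 T cells of this liver gate and whether the CD11c+ subset differed from the CD11c- subset.

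Libraries held 5090345 to 7093163 gene reads, and 10482 to 12581 genes had at least 1 read. The labelled cell type matched its markers, as the 7 CD8 T cell marker genes summed to between 8027 and 9604 CPM (gene counts scaled to library size) in every library. Itgax, which encodes CD11c, reached 242.5 CPM ± 76.3 with surface CD11c and 10.1 ± 5.63 without it (SD, n = 4 each). Transcripts of other cell types were present at lower levels. The 8 macrophage and Kupffer cell markers summed to between 92.2 and 365.5 CPM in the CD11c+ subset and between 94.5 and 200.7 in the CD11c- subset, led by Lyz2 and Cd68. The 8 dendritic cell markers summed to 21.3 to 29.7 and 11.1 to 52.8 CPM, most of it from Ccr7, which T cells also express. Ccr7 was at 17.4 CPM ± 1.45 in the CD11c+ subset and 28.1 ± 17.0 in the CD11c- subset. Xcr1 was at 3.51 ± 1.56 and 1.01 ± 0.691, and Zbtb46 at 1.21 ± 1.69 and 1.59 ± 1.35. Cd209a averaged 1.80 ± 2.17 and 0, and Flt3 1.24 ± 2.49 and 0. Siglech, Clec9a and Batf3 averaged 0.45, 0.194 and 0.0389 CPM in CD11c+ and 0.0909, 0.044 and 0 in CD11c- libraries. The part of dendritic cells in the 9 genes was not tested. CD11c+ replicate 3 had the highest sums for macrophage, neutrophil, NK and CD4 T cell markers, the last from the marker Zbtb7b alone, without a Cd4 read. In bulk RNA, fewer expressing cells and less RNA per cell cannot be told apart.

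Entpd1, Fgl2 and Cd38 were the most highly expressed of the 9 genes, Il10 and Ikzf2 followed, and Foxp3, Nt5e, Ebi3 and Ido1 were low. To compare genes, levels were divided by merged exon length, giving RPKM, the CPM per kb of exon. On this scale Entpd1 was at 48.2 RPKM ± 13.7, Fgl2 at 29.4 ± 6.98 and Cd38 at 27.6 ± 8.38 (SD, n = 8), which placed the 3 genes at or above the 78.9th percentile of 9085 tested genes with a known length. Entpd1 was above Fgl2 in 8 of 8 libraries. Fgl2 and Cd38 did not differ beyond their spread, with Fgl2 above Cd38 in 6 of 8 libraries. Il10, at 8.53 RPKM ± 2.51, lay below every Cd38 value and near the middle of all tested genes, at the 51.4th percentile. Il10 was above Ikzf2 (5.52 ± 2.46) in 7 of 8 libraries, with overlapping ranges. This order rests on their merged exon lengths of 1310 and 11613 bp. Without division by length, Il10 averaged 11.2 CPM and Ikzf2 64.1. In RPKM, Foxp3 (1.88 ± 1.03) was below Ikzf2 in all 8 libraries, and Nt5e (0.467 ± 0.381) and Ebi3 (0.365 ± 0.508) did not differ beyond their spread. Ido1, at a mean of 0.0643 RPKM, had reads in 1 library.

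**Figure D1:**
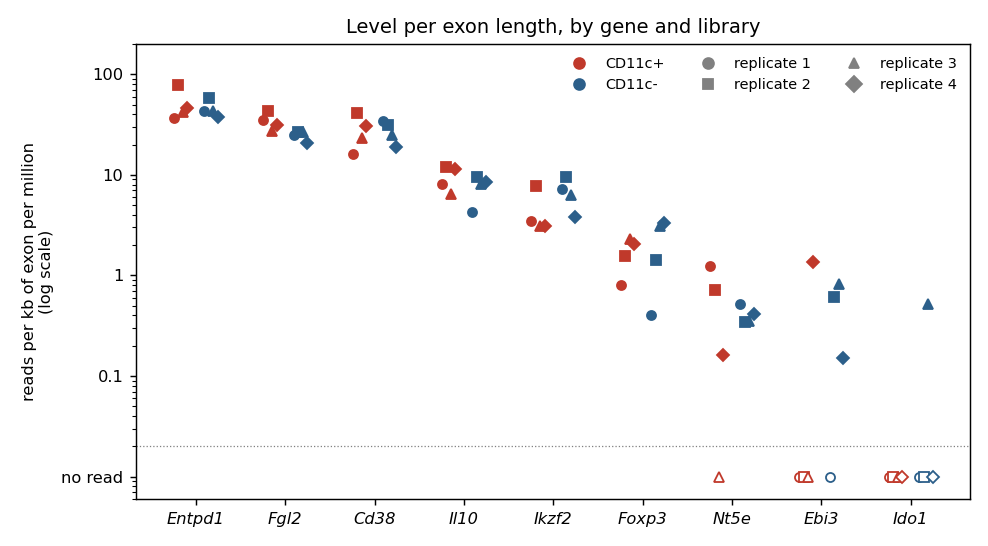
Level of each gene in RPKM, the CPM per kb of exon (log scale) in the 4 CD11c+ libraries (red) and the 4 CD11c- libraries (blue), with the marker shape giving the replicate number. Open symbols at the bottom are libraries without a read. Entpd1, Fgl2 and Cd38 lie at 16.1 or higher in every library, while Ebi3 and Ido1 have reads in 4 and 1 of 8 libraries.

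None of the 7 genes that passed the low-count filter (Fgl2, Il10, Entpd1, Nt5e, Cd38, Ikzf2 and Foxp3) passed the test of CD11c+ against CD11c- cells after adjustment over all tested genes. Fgl2 was at 1.39 times the CD11c- level in CD11c+ cells, and Ikzf2 at 1.54 times the CD11c+ level in CD11c- cells. Fgl2 had the lowest p of the 7 by edgeR and DESeq2, and Ikzf2 by limma voom. By edgeR's quasi-likelihood test with Benjamini-Hochberg adjustment, 0 of 7 passed the threshold of 0.05, where 0.0496% of the 10073 tested genes did (5 genes). At an unadjusted p under 0.05 there was 1 of 7, against 4.7% of all tested genes. DESeq2 and limma voom also called 0 of 7, against 0.288% and 0.189% of all tested genes. Of the 7 log2 fold changes (CD11c+ minus CD11c-), 5 were positive and 2 negative, with a median of 0.16, against a median of 0.01 and 51.7% positive values over all tested genes. Ebi3 and Ido1 were under the filter and are described by their reads.

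**Figure D2:**
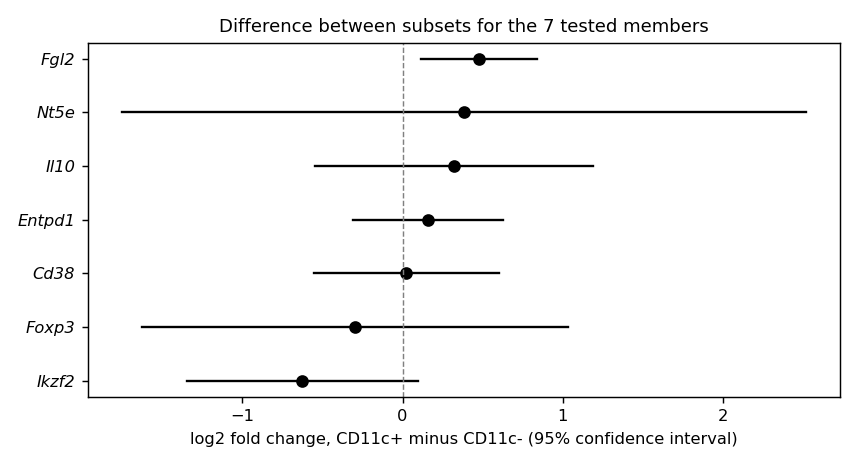
Log2 fold change (CD11c+ minus CD11c-) of the 7 tested genes from edgeR's quasi-likelihood fit, with 95% confidence intervals. The interval of Fgl2 runs from 0.11 to 0.84 before adjustment over all genes, the other 6 include 0, and the interval of Nt5e is the widest, from -1.75 to 2.52.

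Fgl2 encodes fibrinogen-like protein 2, which has a membrane form with prothrombinase activity and a form secreted by T cells that inhibits antigen-presenting cells. In the CD11c+ libraries Fgl2 was at 134, 163, 104 and 118 CPM in replicates 1 to 4. In the CD11c- libraries it was at 94.4, 100.1, 100.3 and 77.7 CPM. All 4 CD11c+ libraries thus lay above all 4 CD11c- libraries, with a narrow gap between the lowest CD11c+ value (103.7) and the highest CD11c- value (100.3). Of the 7 tested genes Fgl2 alone had no overlap between the subsets, as did 3.44% of all tested genes. The group means were 129.5 CPM ± 25.2 and 93.1 ± 10.6 (SD, n = 4 each). The log2 fold change was 0.48 (SE 0.17), with an unadjusted p of 0.0141 and an adjusted p of 0.99 by edgeR. Among all tested genes, 1.6% had every CD11c+ library above every CD11c- library, and 138 genes had a p as low as that of Fgl2 or lower. Without CD11c+ replicate 2, the highest library, the log2 fold change was 0.34 (unadjusted p 0.0587).

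Macrophages also express Fgl2. The 8 macrophage markers summed to 119.9, 92.2, 365.5 and 200.7 CPM in CD11c+ replicates 1 to 4 and to 147, 94.5, 200.7 and 154 CPM in CD11c- replicates 1 to 4. The library with the largest sum of its subset had the lowest Fgl2 value among CD11c+ libraries (replicate 3) and the highest among CD11c- libraries (also replicate 3). In CD11c- replicate 2, with the smallest sum of that subset, Fgl2 was nearly the same (100.1 CPM, against 100.3 in CD11c- replicate 3). The part of these cells in the Fgl2 values was not tested. Of the low-affinity Fc receptors to which FGL2 binds, Fcgr3 was at 4.06 CPM ± 3.49 and 3.01 ± 1.54 and Fcgr2b, under the filter, at 3.36 ± 3.77 and 1.097 ± 0.624 in CD11c+ and CD11c- libraries. Fgl1, a paralogue secreted by hepatocytes, had no read in any library.

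Il10, the gene of the inhibitory cytokine IL-10, was detected in all 8 libraries with 30 to 96 reads each. It was at 10.5, 15.7, 8.53 and 14.9 CPM in CD11c+ replicates 1 to 4, and at 5.56, 12.6, 10.5 and 11.1 CPM in CD11c- replicates 1 to 4. The subsets overlapped, and CD11c- replicate 1 was the lowest library. The means of 12.4 CPM ± 3.45 and 9.93 ± 3.04 gave a log2 fold change of 0.32 (SE 0.40, 95% confidence interval -0.55 to 1.19, adjusted p = 0.992 by edgeR). The interval thus reaches from a lower to a more than doubled level in CD11c+ cells, so the data do not show equal levels. Transcripts of both chains of the IL-10 receptor were abundant in both subsets. Il10ra was at 506 CPM ± 117 and 521 ± 49.4, and Il10rb at 159 ± 26.5 and 151 ± 16.1, with log2 fold changes of -0.04 and 0.08.

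Ebi3 encodes the shared chain of IL-35 and IL-27, and it was close to the detection limit. It had 10 reads in CD11c+ replicate 4, 5 each in CD11c- replicates 2 and 3, 1 in CD11c- replicate 4 and 0 in the other 4 libraries. These reads correspond to 1.56 CPM (95% exact binomial confidence interval 0.746 to 2.86) in CD11c+ replicate 4 and to 0.939 CPM (0.305 to 2.19) in CD11c- replicate 3. A count of 0, taken as at most 3 reads, allows up to 0.523 to 0.586 CPM in the 3 CD11c+ libraries without a read and 0.556 CPM in CD11c- replicate 1. The upper limits of the exact binomial interval there were 0.643 to 0.72 CPM and 0.684 CPM. Such intervals cover counting error only, since amplified reads are not independent molecules. With no filter the log2 fold change was -0.19 (SE 1.71, adjusted p = 0.997 by edgeR).

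The partner chains of EBI3 were detected still less. Il12a, which encodes the p35 chain of IL-35, had 0 reads in all 8 libraries. Il27, which encodes the p28 chain of IL-27, had reads in CD11c+ replicate 3 alone, at 1.42 CPM. Il27ra, the IL-27 receptor chain, averaged 246 CPM ± 19.5 in the CD11c+ subset and 266.5 ± 35.6 in the CD11c- subset, and the shared signalling chain Il6st at 27.2 ± 4.55 and 30.2 ± 5.53. Il12rb1, a chain of the IL-12 and IL-23 receptors, averaged 93.7 ± 8.14 and 76.3 ± 10.8 (log2 fold change 0.30). Il27ra, Il6st and Il12rb1 thus had reads in every library, while the ligand chains were rare or had no read. Il12rb2, a chain that can also take part in the IL-35 receptor, had no read in CD11c- replicate 1. It was at 1.69 CPM or less in CD11c- libraries and at 3.02 to 11.4 CPM in CD11c+ libraries.

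Of the ectoenzymes, Entpd1 was abundant and Nt5e was not. CD39, encoded by Entpd1, turns extracellular ATP and ADP into AMP, and CD73, encoded by Nt5e, turns AMP into adenosine. Entpd1 was at 207, 436, 235 and 257 CPM in CD11c+ replicates 1 to 4 and at 242, 325, 238 and 211 CPM in CD11c- replicates 1 to 4. The subsets overlapped and replicate 2 was the highest library of each. The means were 284 CPM ± 103 and 254 ± 49.5, with a log2 fold change of 0.16 (SE 0.22, 95% confidence interval -0.31 to 0.63, adjusted p = 0.992 by edgeR). Without CD11c+ replicate 2 the log2 fold change had the opposite sign, at -0.13.

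Nt5e had 55, 35, 0 and 9 reads in CD11c+ replicates 1 to 4, or 10.7, 6.10, 0 and 1.40 CPM. In CD11c- replicates 1 to 4 it had 24, 21, 16 and 20 reads, or 4.45, 2.94, 3.00 and 3.52 CPM. The CD11c+ libraries lay on both sides of the CD11c- libraries, which were close together. In CD11c+ replicate 3 the absence of reads allows up to 0.533 CPM (3 reads), or 0.656 CPM by the exact binomial interval. The exact binomial interval in CD11c+ replicate 1 was 8.09 to 13.97 CPM. The within-subset SD of log2(CPM + 0.5) was 2.002 in CD11c+ libraries and 0.243 in CD11c- libraries, against medians of 1.16 and 0.623 for the 200 tested genes closest to Nt5e in mean level. The log2 fold change of 0.38 had an SE of 0.99 (adjusted p = 0.993 by edgeR) and was -0.47 without CD11c+ replicate 1. Per exon length, Entpd1 exceeded Nt5e 29.8-fold to 283-fold in the 7 libraries with a Nt5e read.

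Cd38 encodes an ectoenzyme that consumes NAD and whose products feed adenosine formation by a route that does not need CD39. It was at 62.5, 160.3, 90.7 and 119 CPM in CD11c+ replicates 1 to 4 and at 134, 122, 96.5 and 73.3 CPM in CD11c- replicates 1 to 4. The highest and the lowest of the 8 values were both CD11c+ libraries. The means were 108 CPM ± 41.8 and 106 ± 27.0, and the log2 fold change was 0.02 (SE 0.27, 95% confidence interval -0.55 to 0.60, adjusted p = 0.999 by edgeR). Its sign turned without CD11c+ replicate 2 (-0.24). B cells also carry CD38. The 6 B cell markers summed to between 9.57 and 14 CPM in CD11c+ libraries and between 7.83 and 14.8 in CD11c- libraries, with Pax5 at 0 in 6 of the 8, and their part in the Cd38 values was not tested. Within each subset Cd38 and Entpd1 varied more than most genes of like level. Their SDs of log2(CPM + 0.5) in CD11c+ libraries were at the 97.5th and 98th percentile of the 200 nearest genes, and in CD11c- libraries at the 89.5th and 87.5th.

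Ido1 encodes indoleamine 2,3-dioxygenase, which starts tryptophan breakdown and is known mostly from dendritic cells and macrophages. It had 5 reads in CD11c- replicate 3 (0.939 CPM, 95% exact binomial confidence interval 0.305 to 2.19) and 0 in the other 7 libraries. A count of 0 allows between 0.419 and 0.586 CPM (3 reads) in those 7, with exact binomial upper limits of 0.516 to 0.72 CPM. CD11c- replicate 3 also had the highest dendritic cell marker sum (52.8 CPM), but 50.1 of it was Ccr7, which T cells also express. Its macrophage marker sum (200.7 CPM) was the highest of its subset. CD11c+ replicates 3 and 4 had macrophage marker sums of 365.5 and 200.7 CPM and no Ido1 read. The part of these cells in the Ido1 reads was not tested. No fold change is given, as both subsets lie at the detection limit.

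Ikzf2 encodes Helios, a zinc finger transcription factor of the Ikaros family. It was at 40.4, 89.1, 36.1 and 36.2 CPM in CD11c+ replicates 1 to 4. In CD11c- replicates 1 to 4 it was at 83.6, 110.4, 72.7 and 44.5 CPM. In CD11c+ cells 3 of 4 libraries lay below every CD11c- library, and CD11c+ replicate 2 lay above 3 of the 4 CD11c- libraries. The means were 50.5 CPM ± 25.8 and 77.8 ± 27.3, giving a log2 fold change of -0.63 (SE 0.33, 95% confidence interval -1.35 to 0.10, unadjusted p 0.0834, adjusted p = 0.991 by edgeR). Without CD11c+ replicate 2 the log2 fold change was -1.06 (unadjusted p 0.00244, adjusted p = 0.568 by edgeR), and without CD11c- replicate 2 it was -0.41 (unadjusted p 0.261, adjusted p = 0.999). Of the other Ikaros family genes, Ikzf1 (Ikaros) was at 703 CPM ± 76.8 and 760 ± 70.8, Ikzf3 (Aiolos) at 408 ± 29.0 and 418 ± 12.2 and Ikzf5 (Pegasus) at 17.8 ± 2.31 and 13.1 ± 4.38. Their log2 fold changes were -0.11, -0.04 and 0.44, and 0 of these and Ikzf4 had an unadjusted p under 0.05.

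Foxp3, the lineage factor of regulatory CD4 T cells, had 10 to 87 reads in every library. It was at 3.71, 7.15, 10.5 and 9.49 CPM in CD11c+ replicates 1 to 4 and at 1.85, 6.57, 14.3 and 15.3 CPM in CD11c- replicates 1 to 4. Replicate 1 was the lowest library of each subset. The means were 7.71 CPM ± 3.01 and 9.50 ± 6.41, with a log2 fold change of -0.30 (SE 0.61, 95% confidence interval -1.63 to 1.03, adjusted p = 0.992 by edgeR). The within-subset SD in CD11c- libraries was at the 92nd percentile of the 200 nearest genes. Cd4 had 10 reads in CD11c+ replicate 4, 2 and 5 in CD11c- replicates 2 and 4 and 0 in the other 5 libraries. The 3 CD4 T cell markers, Cd4, Zbtb7b and Cd40lg, summed to 0.195, 0, 7.47 and 3.58 CPM in CD11c+ replicates 1 to 4 and to 0, 1.96, 3.00 and 1.93 CPM in CD11c- replicates 1 to 4. The 7.47 CPM in CD11c+ replicate 3 came from Zbtb7b alone. The sums were at or near 0 in both replicate 1 libraries, where Foxp3 was lowest, and also in CD11c+ replicate 2. The part of CD4 T cells in the Foxp3 reads was not tested. In the GENCODE annotation 31.5% of the exon length of Foxp3 overlaps exons of other genes, among them Ppp1r3f and Ccdc22, so its reads cannot be assigned to Foxp3 with certainty without a known strand setting.

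**Figure D3:**
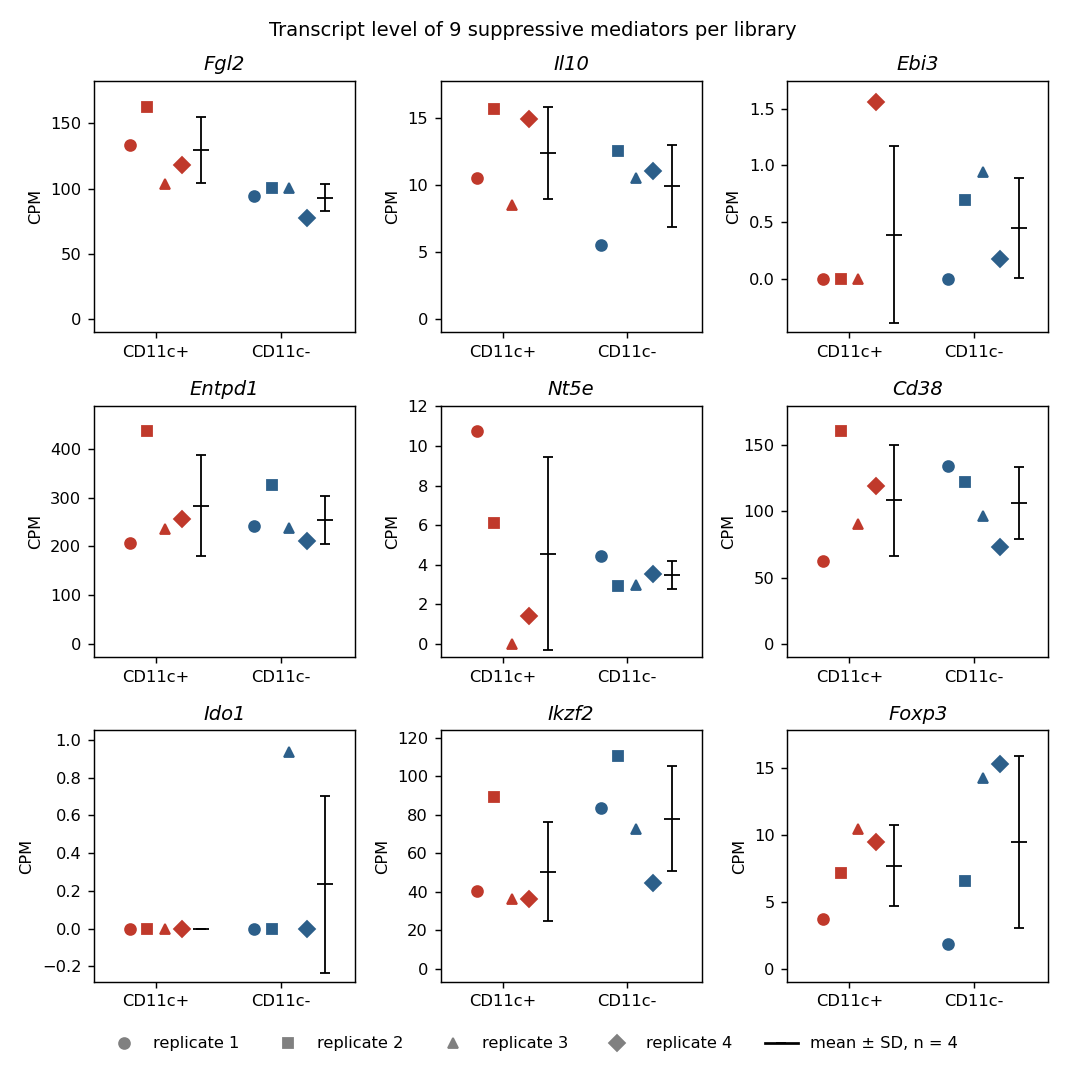
CPM of the 9 genes in each library, by subset and replicate number, each panel with its own linear axis, and the mean ± SD (n = 4) to the right of each subset in black. Only Fgl2 has all 4 CD11c+ libraries above all 4 CD11c- libraries, and CD11c+ replicate 2 (square) is the highest CD11c+ library for Fgl2, Il10, Entpd1, Cd38 and Ikzf2.

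CD11c+ replicate 2 stood high for the 5 genes of at least 10 CPM. It was the highest CD11c+ library for 5 of 5 (Entpd1, Fgl2, Cd38, Ikzf2 and Il10) and the highest of all 8 libraries for 4 of 5. Among the 7980 tested genes of at least 10 CPM it was the highest CD11c+ library for 27.4% and the highest of all 8 for 18.8%. CD11c- replicate 2 was the highest CD11c- library for 3 of 5 (Entpd1, Ikzf2 and Il10), against 21.3% of all such genes. Other libraries did not order the genes alike. In CD11c+ replicate 1 Fgl2 was at the second highest of its 8 values and Entpd1 and Cd38 at their lowest, and in CD11c- replicate 1 Cd38 was at its second highest and Il10 at its lowest. The 9 genes summed to 877 CPM in CD11c+ replicate 2, against 469 to 558 in the other 3 CD11c+ libraries and 436 to 681 in the CD11c- libraries. Entpd1 made up 42.8% to 49.7% of the sum in each library. CD11c+ replicate 2 had 10892 detected genes, the third lowest number, and the smallest macrophage marker sum. The part of library quality in its high values was not tested.

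**Figure D4:**
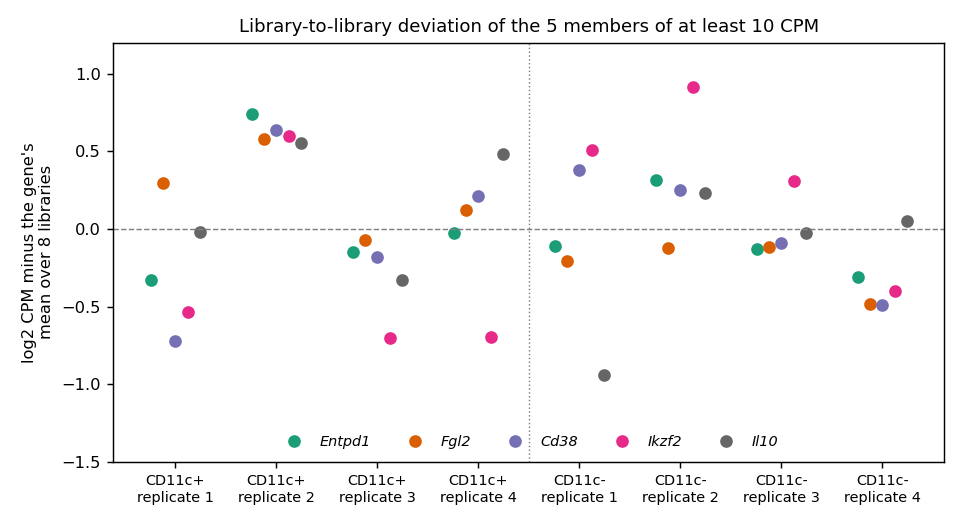
Log2 CPM of Entpd1, Fgl2, Cd38, Ikzf2 and Il10 in each library, minus each gene's mean over the 8 libraries (dashed line at 0). All 5 genes lie above their mean in CD11c+ replicate 2, and Ikzf2 lies below its mean in the other 3 CD11c+ libraries.

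The gene whose log2 CPM over the 8 libraries was most like that of Ikzf2 was Tox, a transcription factor of chronically stimulated T cells (Pearson r = 0.953 among 7979 genes of at least 10 CPM). Itfg1 (r = 0.908) and Ikzf3 (r = 0.885) followed. Tox was at 250, 412, 233 and 219.8 CPM in CD11c+ replicates 1 to 4 and at 387, 585, 439 and 323 CPM in CD11c- replicates 1 to 4, so that replicate 2 was the highest library of each subset for both genes. The closest genes to Fgl2 were Naa50 (r = 0.967), Tmem87b (r = 0.956) and Trip11 (r = 0.942), and those to Il10 were Brix1 (r = 0.976), Rrn3 (r = 0.967) and Wbp11 (r = 0.965). Entpd1 was closest to Tmem135 (r = 0.97), Api5 (r = 0.965) and Cep76 (r = 0.954), and Cd38 to Bclaf1 (r = 0.964), BC016495 (r = 0.957) and 2410042D21Rik (r = 0.957). These are the highest of 7979 values over 8 libraries of one experiment that differ in depth, and are given as a description.

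Among 145 other genes of these pathways, in 9 lists, 143 were found in the files and 91 were tested. By edgeR 0 of the 91 passed the threshold (0.0496% of all tested genes), and 11 had an unadjusted p under 0.05, against 4.7% of all tested genes. DESeq2 called 2 of the 91, against 0.288% of all tested genes, and limma voom 2 of the 91, against 0.189%. As the lists were chosen with earlier results of these data known, these shares are not a test of the lists. The 91 log2 fold changes had a median of -0.03, with 42 positive and 49 negative. Except for the single FGL2 receptor gene, the median of each list lay between -0.09 and 0.30.

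By edgeR 0 of 16 tested genes that handle extracellular nucleotides passed, where 0.0496% of all tested genes did. Of the 16, 2 had an unadjusted p under 0.05, against 4.7% of all tested genes. Adora2a, the adenosine receptor through which adenosine restrains T cells, averaged 185 CPM ± 49.4 in the CD11c+ subset and 180.1 ± 31.8 in the CD11c- subset. The ATP release channel Panx1 was at 198 ± 27.9 and 207 ± 16.6, and the nucleoside transporter Slc29a1 at 159 ± 37.0 and 159.5 ± 10.6. Adora1 and Adora3 had no read in any library. Of 19 tested genes of NAD metabolism 0 passed (DESeq2 and limma voom also called 0). By edgeR 0 of these 19 had an unadjusted p under 0.05, against 4.7% of all tested genes. Parp1, which consumes NAD in DNA repair, was at 210.5 ± 45.3 and 210.9 ± 12.7, and the NAD-dependent deacylase Sirt7 at 222 ± 67.4 and 225 ± 18.8. Nadk, the NAD kinase, was at 157 ± 16.8 and 175 ± 12.1.

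In the list of IL-10 family genes, receptors and regulators, 0 of 13 tested genes passed by edgeR, where 0.0496% of all tested genes did. In this list, the regulatory T cell signature and the tryptophan list, 1 gene each had an unadjusted p under 0.05, against 4.7% of all tested genes. Bhlhe40, a repressor of Il10 in T cells, was at 575 CPM ± 192 and 534 ± 135, and the kinase Jak1 at 858 ± 144 and 1042 ± 171 in CD11c+ and CD11c- libraries. Il19, Il20, Il22 and Il24 had no read in any library. In the regulatory T cell signature 0 of 14 passed, with Capg, an actin-capping protein, at 173 ± 18.0 and 178 ± 44.1, Tnfrsf18 (GITR) at 139.8 ± 15.3 and 193 ± 34.9, Ctla4 at 72.1 ± 24.1 and 104 ± 28.7, Il2ra (CD25) at 4.11 ± 3.19 and 1.15 ± 1.04, and Gpr83 without a read. Of the tryptophan genes 0 of 10 passed. Wars, the tryptophan tRNA synthetase, was at 168 ± 23.1 and 166 ± 13.0, Slc3a2, a chain of the tryptophan importer, at 212 ± 48.0 and 170.2 ± 14.8, and the kynurenine enzyme Haao at 34.3 ± 8.15 and 42.7 ± 9.45. The other tryptophan-degrading enzymes Ido2 and Tdo2 had reads in 1 and 3 libraries.

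**Figure D5:**
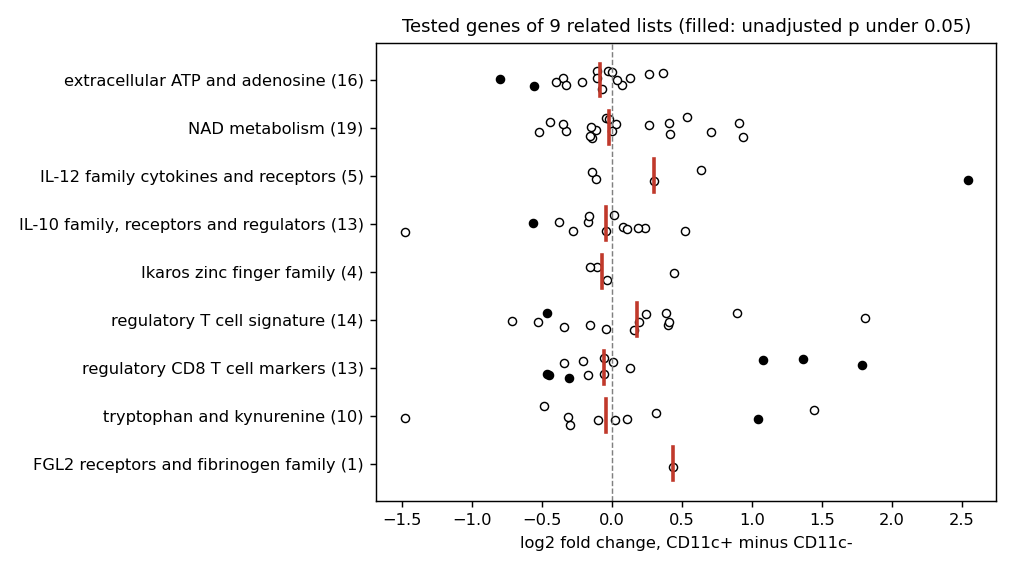
Log2 fold change (CD11c+ minus CD11c-) of every tested gene in 9 lists of related genes, with the number tested in brackets, filled where the unadjusted p was under 0.05, and a red bar at each list's median. Genes in 2 lists are drawn in both, and 0 of the 91 genes passed after adjustment over all tested genes.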

How the data were processed

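Per the labels' protocols, RNA was amplified by a modified SMART-seq2 protocol (10 to 12 cycles), made into Nextera XT libraries and sequenced by 50 bp single-read runs. The submitters' processing notes list bcl2fastq, TopHat2 2.0.8b, HTSeq and the mm9 build, but the sources used here do not give the annotation or the strand setting. Each deposited file gives unnormalized read counts by gene symbol. In each, 5 summary rows were left out, and reads in no annotated gene were 63.1% to 67.1% of uniquely placed reads.

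The labels number the libraries 1 to 4 in each group and do not say that they are separate mice, so the p-values rest on the spread among samples and that spread may be technical. The lowest chi-square per degree of freedom between 2 libraries of a group was 9.43, so each counted as 1 sample. The test was edgeR 4.0.16's quasi-likelihood test under R 4.3.3 (glmQLFit and glmQLFTest after filterByExpr and TMM scaling), without a replicate block, with Benjamini-Hochberg adjustment over 10073 genes. SE is the fold change over the root of F. CPM use TMM-scaled library sizes. Lengths for RPKM, computed here, are merged exons of GENCODE M21 (GRCm38), a later build than that of the files, and coordinates were not used. Steps were tested on simulated data. Alternatives were RLE factors, library size alone, other filters, a replicate block, each library left out, DESeq2 1.42.0, limma 3.58.1 voom and another edgeR dispersion setting.

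The 9 genes, the related lists and the marker lists were chosen with earlier results of these data known. Named genes were the 9, per list the 3 tested genes of highest mean CPM and up to 3 past the threshold, and per gene of at least 10 CPM the 3 of highest Pearson correlation. Further genes, among them receptor and ligand partners and genes without reads, were named after their values were seen. Of 145 related symbols 143 matched.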

Additional observations from a re-analysis of the deposited data

Results flagged for a closer look

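Among the 18 sets of 4 libraries (9 genes in each subset), 3 had a library far from the others by Dixon's test. For Ikzf2, CD11c+ replicate 2 was at 89.1 CPM, with the next CD11c+ library at 40.4. Chance marks about 1 in 20 such sets. For Ebi3, CD11c+ replicate 4 was at 1.56 CPM (10 reads), with 0 in the other 3 CD11c+ libraries. For Ido1, CD11c- replicate 3 was at 0.939 CPM (5 reads), with 0 in the other 3 CD11c- libraries. For Ebi3 and Ido1 the other 3 values are all 0, so the test marks any library with a read and carries no weight there.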

How the results depend on the processing

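The call of 0 of the tested members held under every alternative run. The number of genes called over all genes was 5, and it was 12 with no filter, 8 with at least 5 CPM in 4 libraries, 13 with the replicate block, 29 by DESeq2, 19 by limma voom, 11 with the other edgeR dispersion setting, 11 when the 3 libraries with fewest detected genes were left out, and 1 to 5 with 1 library left out. The log2 fold changes of Fgl2 (0.25 to 0.56), Ikzf2 (-1.08 to -0.41) and Il10 (0.04 to 0.46) kept their sign in all 17 alternatives. Those of Cd38 ran from -0.24 to 0.21, of Entpd1 from -0.13 to 0.29, of Foxp3 from -0.65 to 0.016 and of Nt5e from -0.47 to 0.80 with 1 library left out. With the replicate block Cd38 was at -0.012 and Nt5e at -0.50. Nt5e was at -1.38 by limma voom, and with those 3 libraries left out Nt5e was at -2.10 and Entpd1 at -0.078. For these reversals the cause was not tested. Deviations of same-numbered libraries correlated at 0.0897 to 0.188 (12 other pairs -0.12 to 0.0214), with 3 of 4 pairs over 0.1, and all 8 libraries correlated best with their own number. This is a hint of pairing from the data, not the design. With the block Ikzf2, lower in the CD11c+ library of all 4 numbers, had an unadjusted p of 0.00884 and an adjusted p of 0.662 by edgeR (0.486 to 1 over its alternatives), against 0.0137 and 0.754 for Fgl2. Depth limits Ebi3, Ido1 and Nt5e, where 3 reads are 0.419 to 0.586 CPM.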

Other observations

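Among the related genes, 11 had an unadjusted p under 0.05 without passing after adjustment by edgeR, and those given here were chosen after their values were seen. Adk, the kinase that removes adenosine inside cells, averaged 28.9 CPM ± 5.06 in the CD11c+ subset and 50.4 ± 4.02 in the CD11c- subset (SD, n = 4 each), with no overlap between subsets (log2 fold change -0.80, adjusted p = 0.568 by edgeR). Il12rb2, the signalling chain of the IL-12 receptor that can also take part in the IL-35 receptor, was at 7.37 ± 3.68 and 1.24 ± 0.826 (log2 fold change 2.55, adjusted p = 0.961 by edgeR), also without overlap. It had 0, 12, 9 and 9 reads in CD11c- replicates 1 to 4 and passed the low-count filter only through its CD11c+ libraries. The filter thus favoured a higher CD11c+ level, and the Il12rb2 fold change and lack of overlap are given as a description. Slc7a5, a transporter of tryptophan and other large neutral amino acids, was at 11.1 ± 2.21 and 5.39 ± 1.75, and Socs3, an inhibitor of cytokine signalling, at 30.0 ± 3.21 and 44.6 ± 5.11. Both were without overlap between subsets, with adjusted p of 0.991 and 0.99 by edgeR. Of all tested genes, 3.44% had no overlap between subsets.

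Among the 13 tested markers of regulatory CD8 T cells, 5 log2 fold changes were positive and 8 negative, with a median of -0.06. Klra3 was at -0.06, and Klra1, Klra5, Klra6, Klra7 and Klra9 were under the filter. Klrc1 (NKG2A), its partner chain Klrd1 and the chemokine Xcl1 had log2 fold changes of 1.79, 1.37 and 1.08, and Tigit, Tnfrsf18 and Il2rb of -0.45, -0.47 and -0.31. By edgeR these 6 of the 13 tested genes of the list had an unadjusted p under 0.05, against 4.7% of all tested genes. As the list was chosen with earlier results of these data known, its shares are not a test of the list. After adjustment 0 of the 13 passed, with adjusted p of 0.0677 for Klrc1 and 0.0992 for Klrd1. DESeq2 and limma voom each called Klrc1 and Klrd1, and not Xcl1 (2 of 13, against 0.288% and 0.189% of all tested genes). The 4 NK cell markers summed to between 11.5 and 80.2 CPM in CD11c+ libraries and between 6.30 and 37.2 in CD11c- libraries. CD11c+ replicate 3 had the highest sum and the highest Klrd1 value (323 CPM), while Klrc1 was highest in CD11c+ replicate 1 (67.3 CPM). The part of NK cells in these values was not tested. H2-T23, which encodes a chain of Qa-1, the MHC molecule bound by these receptors, averaged 542 CPM ± 52.7 and 563.5 ± 33.8 in the 2 subsets. The inhibitory receptor gene Lag3 was at 415 ± 172 and 380 ± 118.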
